A study of Saccharomyces cerevisiae with 11 samples.

Results

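The 2 arrays taken on day 16 of retentostat cultivation, when the specific growth rate had dropped to 0.0011 per hour, were compared with the 3 arrays of chemostat cultures growing at 0.025 per hour. These 5 arrays were chosen by their sample titles out of 11 in all. The yeast was the prototrophic haploid Saccharomyces cerevisiae strain CEN.PK113-7D, with the genotype MATa MAL2-8c SUC2. All cultures were anaerobic, limited by glucose and fed synthetic medium with 50 g of glucose per litre. A retentostat is a chemostat whose outflow passes through a filter, here with pores of 0.22 µm, so that cells stay in the vessel while medium keeps flowing. The pair of retentostats was started from independent chemostat cultures at the same dilution rate, and arrays from days 9 and 22, with growth rates of 0.0024 and 0.00063 per hour, came from the same pair of vessels. Growth rate, culture age and retention of the cells differ together between day 16 and the chemostats and cannot be told apart.

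In such cultures the sugar supply per cell shrinks until nearly all of it is spent on maintenance, the energy a cell needs to stay alive without dividing. Yeast that stops growing in batch culture usually does so because a nutrient has run out; cells in a retentostat are still fed. Slow growth in yeast is known to go with less expression of ribosome assembly genes and more expression of genes for stress protection and storage carbohydrates. Without oxygen, yeast cannot make sterols, unsaturated fatty acids or haem, and it expresses a set of hypoxic genes for sterol import and cell wall remodelling.

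The values are array intensities on the authors' scale, and 5585 genes were tested, of which 5423 are protein-coding, 153 are non-coding RNAs and 9 are pseudogenes. A change is the log2 of day 16 over chemostat, given relative to the median change of all genes, which was 0.14 with the deposited scaling, so the median gene stands at 0. Its standard error (SE) comes from a limma fit and follows the ± sign. A gene is said to rise or fall only where its adjusted p was under 0.05, with the same sign, under 3 ways of scaling the arrays to each other, and the adjusted p given is the largest of the 3. Each list below is also counted without each of the 11 arrays in turn, and "in every such fit" means that the call was made with all arrays and in all 11 of these. Each culture was sampled whole, so a lower RNA level per cell and fewer cells of a kind cannot be told apart.

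Over genes, the log2 values of the day 16 arrays correlated with r = 0.981, those of the chemostat pairs with r between 0.983 and 0.992, and day 16 against chemostat arrays with r between 0.892 and 0.935. The actin 5′ to 3′ signal ratio, a sign of RNA integrity, was 0.736 and 0.472 at day 16, against 0.766 to 0.796 in the chemostats. The TBP ratio was 0.563 and 0.568 at day 16, against 0.466 to 0.562 in the chemostats. Day 16 replicate 2 thus stood apart from the other arrays of these groups by its actin ratio. At day 22 the ratio was 0.571 and 0.341, with replicate 2 again the lower. Both replicates 2 come from the same culture, so a fit with the ratio as a covariate cannot fully separate RNA integrity from culture. A fit with the actin ratio as a covariate called 1154 genes, against 1775 without it, and counts of a list in that fit are given below where they are much lower. With so few arrays, the precision of every value is limited by their number. The 7 markers of the MATa mating type were measured in every array, with a summed intensity of 22855 to 26993 at day 16, against 16059 to 21089 in the chemostats. The 6 hypoxic genes that served as markers of anaerobic growth did not move together. TIR1, a cell wall mannoprotein, read 8752 and 11674 at day 16, against 8668, 7078 and 10686 in the chemostats, and ANB1, the hypoxic eIF5A, read 5411 and 6558 at day 16, against 5095, 4869.6 and 5114 in the chemostats, and neither passed the test. DAN1 and HEM13 fell, as given below. AAC3, the hypoxic ADP/ATP carrier, read 131 and 80.1 at day 16, against 167, 180.0 and 154 in the chemostats and fell (log2 change -0.84 ± 0.24, adjusted p = 0.0391), a call that was lost under 9 of 25 alternatives, the covariate among them. COX5B, the hypoxic subunit of cytochrome c oxidase, read 289.6 and 370.4 at day 16, against 141, 150.4 and 218 in the chemostats and rose (log2 change 0.84 ± 0.20, adjusted p = 0.0118), and its call was lost without day 16 replicate 2.

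At day 16, 1775 of the 5585 genes (31.8%) differed from the chemostat. Of these, 1077 were higher (19.3% of those tested) and 698 lower (12.5%). Changes of at least 2-fold were seen for 442 of the risen and 349 of the fallen genes, and changes of at least 8-fold for 18 and 10. Single arrays carried many of these calls: without day 16 replicate 2, the array of lowest actin ratio here, 886 genes were called, 521 higher and 365 lower. In every fit with 1 array left out, 442 genes rose (7.91%) and 267 fell (4.78%). The non-coding RNAs tested went 1 way, with 88 of 153 higher (57.5%) and 0 lower, whereas 984 of the protein-coding genes were higher (18.1%) and 698 lower (12.9%). At an unadjusted p under 0.05 in the deposited scaling the number of lower non-coding RNAs was also 0.

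**Figure D1:**
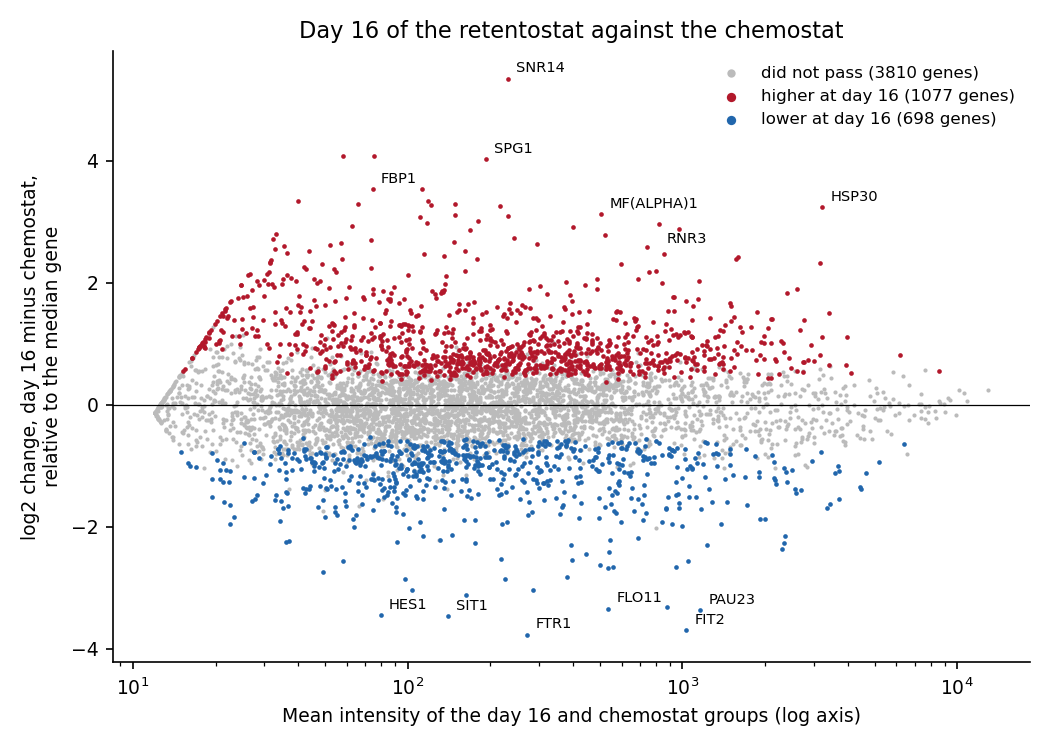
Each point is 1 gene, with the mean intensity of the day 16 and chemostat groups on the log-scaled x axis and the log2 change, day 16 minus chemostat relative to the median gene, on the y axis. The 1077 genes that rose lie above 0 and the 698 that fell below it, with SNR14 at 5.35 and FTR1 at -3.77 as the extremes.

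The largest rises among named protein-coding genes were those of a stationary phase gene, a gluconeogenic enzyme, a membrane stress protein and a pheromone. SPG1, needed for survival in stationary phase, read 785 and 848 at day 16, against 46.9, 24.2 and 83.1 in the chemostats, a log2 change of 4.03 ± 0.44 (SE, adjusted p = 0.000115). FBP1, the fructose-1,6-bisphosphatase that gluconeogenesis depends on, read 245 and 289 at day 16, against 19.1, 20.9 and 22.8 in the chemostats (log2 change 3.54 ± 0.17, adjusted p = 7.7e-06). The chemostat readings of FBP1 lay near the floor of 12, below which readings were set to that value. HSP30, a plasma membrane stress protein that restrains the proton pump Pma1, read 9566 and 11180.4 at day 16, against 1119.8, 655 and 1364 in the chemostats (log2 change 3.23 ± 0.31, adjusted p = 7.42e-05). MF(ALPHA)1, the main precursor of the alpha-factor pheromone, read 1575 and 1553 at day 16, against 147, 152 and 194 in the chemostats (log2 change 3.12 ± 0.24, adjusted p = 2.29e-05). RNR3, the minor large subunit of ribonucleotide reductase and a gene known for its induction by DNA damage and stalled replication, read 2693 and 2139 at day 16, against 269, 228 and 356 in the chemostats (log2 change 2.97 ± 0.21, adjusted p = 1.79e-05). By the choice of genes, the day 16 and chemostat arrays overlap in none of the genes named here. SHH3, a mitochondrial homologue of the Sdh3 subunit of succinate dehydrogenase, read 985 and 1347 at day 16, against 146, 93.8 and 196 in the chemostats (log2 change 2.92 ± 0.30, adjusted p = 0.000115). AAD10, a putative aryl-alcohol dehydrogenase, read 590.2 and 744 at day 16, against 95.1, 82.7 and 93.3 in the chemostats (log2 change 2.74 ± 0.22, adjusted p = 3.23e-05). PUL3, a transporter of the pulcherrimin cluster, read 82.6 and 102 at day 16 and was under the floor in every chemostat, at least 7.65-fold lower than at day 16 (adjusted p = 0.00124).

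The largest falls were led by genes of iron and sterol handling and of the cell surface. FTR1, the permease of the high-affinity iron uptake complex, read 70.7 and 84.1 at day 16, against 961, 1137 and 805 in the chemostats, a log2 change of -3.77 ± 0.21 (SE, adjusted p = 7.84e-06). FIT2, a cell wall mannoprotein that holds siderophore-bound iron, read 411 and 219.6 at day 16, against 4011, 3729.5 and 3009 in the chemostats (log2 change -3.7 ± 0.24, adjusted p = 2.29e-05), and SIT1, a siderophore transporter, read 63.0 and 30.8 at day 16, against 489, 535 and 337 in the chemostats (log2 change -3.47 ± 0.29, adjusted p = 4.51e-05). HES1, an oxysterol-binding protein, read 22.8 and 28.0 at day 16, against 311, 292 and 176 in the chemostats (log2 change -3.45 ± 0.30, adjusted p = 4.53e-05). Day 16 readings of HES1 approached the floor, so the fall may be understated. PAU23, a seripauperin of the anaerobic cell wall, read 375 and 380.4 at day 16, against 4911, 4399 and 2062 in the chemostats (log2 change -3.37 ± 0.40, adjusted p = 0.000261). FLO11, the flocculin behind surface adhesion and filamentous growth, read 222 and 141 at day 16, against 1732, 1411 and 1781 in the chemostats (log2 change -3.34 ± 0.23, adjusted p = 2.29e-05). ATF2, an acetyltransferase that acts on alcohols and sterols, read 79.9 and 41.6 at day 16, against 471, 479.8 and 424 in the chemostats (log2 change -3.13 ± 0.37, adjusted p = 0.000225). By the choice of genes, the groups overlap in none of these. The 2 day 16 arrays of FIT2, SIT1 and ATF2 differed from each other by about 2-fold. YHB1, the flavohaemoglobin that detoxifies nitric oxide, read 431 and 195 at day 16, against 2569, 2817 and 2555 in the chemostats (log2 change -3.33 ± 0.30, adjusted p = 6.7e-05). It has 4 probe sets, with changes between -3.33 and 1.71, so its direction is not the same in all of them.

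**Figure D2:**
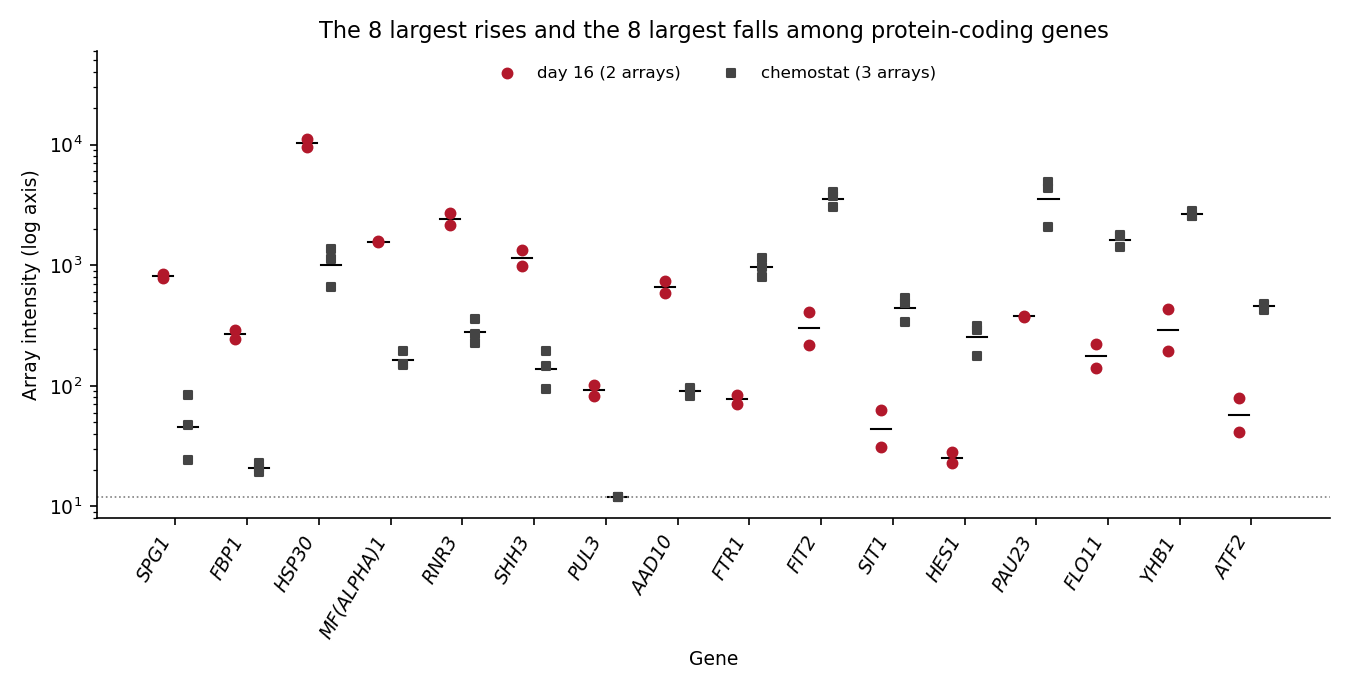
Array intensities, on a log axis, of the 8 named protein-coding genes with the largest rise (SPG1 to AAD10) and the 8 with the largest fall (FTR1 to ATF2), with the 2 day 16 arrays as circles to the left of the 3 chemostat arrays as squares. Horizontal lines are means on the log scale, the dotted line is the floor of 12 to which lower readings were set, and by the choice of genes the groups do not overlap in any of the 16.

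Iron uptake genes fell as a part of their list, not as a whole. Of 26 tested, 8 fell, all 8 in every fit with 1 array left out, 4 rose, and the median was -0.18. The fallen members were FTR1 and its partner FET3, the multicopper ferroxidase, the cell wall mannoproteins FIT2 and FIT3, the siderophore transporters SIT1 and ENB1, the reductase homologue FRE5, and AFT1, the transcription factor that activates this regulon under iron shortage. FET3 read 86.1 and 82.2 at day 16, against 452, 437 and 255 in the chemostats (log2 change -2.27 ± 0.25, adjusted p = 0.000147). AFT1 read 146 and 128 at day 16, against 255, 270.1 and 219.6 in the chemostats (log2 change -0.99 ± 0.16, adjusted p = 0.00207), whereas its paralogue AFT2 rose (log2 change 0.97 ± 0.19, adjusted p = 0.0026), the 1 riser of the list that was called in every such fit. Without day 16 replicate 1 the risers numbered 2. FET4, a low-affinity iron transporter, changed by 0.32 ± 0.17 (SE, adjusted p = 0.149) and HMX1, the haem oxygenase, by -0.40 ± 0.27 (SE, adjusted p = 0.47), and neither passed. In the zinc list, IZH1 and IZH4, membrane proteins tied to zinc homeostasis, were the ones that fell in every such fit, and IZH4 read 228 and 329.5 at day 16, against 950.0, 914 and 847 in the chemostats (log2 change -1.86 ± 0.25, adjusted p = 0.000527). The list counted 5 of 14 fallen with all arrays and 2 with day 16 replicate 2 left out.

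Ergosterol biosynthesis was the list with the largest share of fallen members. Of 25 genes tested, 22 fell, 20 of them in every fit with 1 array left out, and the median was -1.54. The change ran along the whole route. In the mevalonate branch, ERG13, the hydroxymethylglutaryl-CoA synthase, read 226 and 236 at day 16, against 794, 853 and 649 in the chemostats (log2 change -1.86 ± 0.18, adjusted p = 8.98e-05). ERG1, the squalene epoxidase and the first oxygen-requiring step, read 516 and 391 at day 16, against 2594, 2603 and 2116 in the chemostats (log2 change -2.57 ± 0.22, adjusted p = 6.42e-05). CYB5, the cytochrome b5 that feeds electrons to sterol and lipid oxidations, read 100.1 and 109.9 at day 16, against 845, 870.2 and 651 in the chemostats (log2 change -3.04 ± 0.27, adjusted p = 4.58e-05). ERG26, a decarboxylase that acts on a methyl-derived carboxyl group of the sterol ring, read 256 and 277 at day 16, against 1236, 1076 and 1065 in the chemostats (log2 change -2.22 ± 0.19, adjusted p = 4.22e-05). In all of these the highest day 16 array stayed below the lowest chemostat array, as it did in 24 of the 25 genes and in 24.8% of all genes tested. The isoforms of the rate-limiting reductase differed: HMG1 fell (log2 change -1.68 ± 0.29, adjusted p = 0.00221), while HMG2, the isoform known from cells short of oxygen, changed by 0.33 ± 0.16 (SE, adjusted p = 0.139). ERG12 fell by its brightest probe set, and its 4 probe sets lay between -2.26 and -0.01.

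Among genes of sterol uptake, sterol esters and their regulators, 8 of 15 fell and 1 rose. The falls numbered 5 with chemostat replicate 1 or day 16 replicate 1 or 2 left out, and also 5 with the actin ratio as a covariate. UPC2, the activator of anaerobic sterol import, read 57.0 and 51.1 at day 16, against 134, 173 and 101 in the chemostats (log2 change -1.44 ± 0.23, adjusted p = 0.0016). Its paralogue ECM22 read 612 and 785 at day 16, against 278, 320.3 and 355 in the chemostats (log2 change 0.99 ± 0.19, adjusted p = 0.00273). The pair thus moved in opposite directions, with no overlap between the groups in either gene. OSH6, an oxysterol-binding homologue that carries phosphatidylserine, fell as well (log2 change -2.0 ± 0.22, adjusted p = 0.000178). In the fatty acid synthesis list 5 of 15 fell, 3 with day 16 replicate 1 or 2 left out, and 8 with quantile normalization alone or with only the arrays of the 2 groups. ELO2, an elongase, read 183 and 165 at day 16, against 452, 416 and 409 in the chemostats (log2 change -1.43 ± 0.25, adjusted p = 0.00273), and the fatty acid synthase gene FAS1, whose 8 probe sets lay between -4.06 and -0.98, was lower by all of them.

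Mannoproteins of the anaerobic cell wall fell together. Of 16 tested, 13 fell, 12 of them in every fit with 1 array left out, with a median of -2.08. DAN1, made only when oxygen is absent, read 3165 and 2650.0 at day 16, against 7185, 7058 and 6345 in the chemostats (log2 change -1.38 ± 0.17, adjusted p = 0.000514). PAU15 read 135 and 166 at day 16, against 1302, 1247 and 557 in the chemostats (log2 change -2.83 ± 0.35, adjusted p = 0.000277). For both genes the groups were apart. The seripauperins are near-identical copies whose signals the probe sets cannot separate, so the number of fallen members is uncertain. TIR1, a mannoprotein of the same kind, did not pass, as given above.

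Genes of haem synthesis and oxygen regulation went both ways. CYC7, the cytochrome c isoform favoured under hypoxia and stress, read 1959.7 and 2268 at day 16, against 288, 362 and 393 in the chemostats (log2 change 2.47 ± 0.31, adjusted p = 0.000301). HEM13, the coproporphyrinogen oxidase of haem synthesis, read 479 and 339 at day 16, against 1154, 1156 and 877 in the chemostats (log2 change -1.52 ± 0.23, adjusted p = 0.0012), and HAP1, the haem-responsive activator, fell (log2 change -1.6 ± 0.23, adjusted p = 0.00109). In all, 6 of 19 rose and 3 fell, and the rises numbered 1 with day 16 replicate 2 left out. The translation factor pair eIF5A, which yeast encodes as an aerobic and a hypoxic gene, split in the same cells. HYP2, the aerobic form, read 1319 and 1044 at day 16, against 4776, 4573 and 4924 in the chemostats (log2 change -2.16 ± 0.19, adjusted p = 8.96e-05), while the hypoxic ANB1 changed by 0.11 ± 0.14 (SE, adjusted p = 0.509). The 2 genes are close copies, and probe sets may not fully separate them.

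Genes of sugar uptake and glycolysis were called in both directions. HXT5, a hexose transporter known from slow growth and starvation, read 2277 and 2587 at day 16, against 573, 363 and 762 in the chemostats (log2 change 2.03 ± 0.29, adjusted p = 0.000579). GAL2, the galactose permease that also takes up glucose, rose (log2 change 0.99 ± 0.20, adjusted p = 0.00475) and MTH1, a repressor in glucose sensing, fell (log2 change -0.91 ± 0.17, adjusted p = 0.0047). In the hexose transport list 3 of 17 rose and 2 fell, shares near the 19.3% and 12.5% of all genes. The rises numbered 1 with a floor of 50 and 5 with the deposited scaling alone. Of 26 genes of glycolysis, fermentation and glycerol, 4 fell, 1 without day 16 replicate 2 or with the actin ratio as a covariate, and 2 rose. PDC1, the main pyruvate decarboxylase, read 2421 and 3060.2 at day 16, against 5397, 5164 and 4374 in the chemostats (log2 change -1.0 ± 0.17, adjusted p = 0.005), and PDC6, a minor isoform, read 801 and 633 at day 16, against 325, 312 and 387 in the chemostats (log2 change 0.93 ± 0.18, adjusted p = 0.00322). The pair moved in opposite directions, and the groups overlapped in neither gene.

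Genes of gluconeogenesis and the glyoxylate cycle rose where they changed, with 6 of 19 higher, 0 lower and a median of 0.52. With the deposited scaling alone 10 rose. Besides FBP1, PCK1, the phosphoenolpyruvate carboxykinase, read 2695 and 2849 at day 16, against 824, 806 and 831 in the chemostats (log2 change 1.62 ± 0.17, adjusted p = 0.000162). MLS1, the malate synthase, read 153 and 173 at day 16, against 45.8, 44.7 and 42.7 in the chemostats (log2 change 1.74 ± 0.21, adjusted p = 0.000263), and CRC1, the mitochondrial carnitine carrier, rose (log2 change 1.83 ± 0.20, adjusted p = 0.000236). These 4 rose in every fit with 1 array left out. ICL1, the isocitrate lyase that works directly before malate synthase, read 168 and 157 at day 16, against 153, 142 and 134 in the chemostats, a change of 0.04 ± 0.16 (SE, adjusted p = 0.912). The genes that make acetyl-CoA in the cytosol and acetate went the other way. ALD6, the cytosolic acetaldehyde dehydrogenase, read 763 and 604 at day 16, against 2109.5, 2276 and 1712 in the chemostats (log2 change -1.71 ± 0.21, adjusted p = 0.00038), and ACS2, the acetyl-CoA synthetase of anaerobic cells, read 681 and 633 at day 16, against 1872, 1734 and 1508 in the chemostats (log2 change -1.51 ± 0.17, adjusted p = 0.000251). The mitochondrial ALD4 (log2 change -1.65 ± 0.19, adjusted p = 0.000441) and ALD5 (log2 change -1.77 ± 0.22, adjusted p = 0.00035) fell too, and all 4 falls were seen in every such fit, whereas the 3 rises of this list (ALD2, ALD3 and ACH1) were not.

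With all arrays, a majority of the respiratory chain genes rose although the cultures were anaerobic. Of 33 genes tested, 19 rose and 0 fell, with a median of 0.61. In 30 of the 33, both day 16 arrays lay above all chemostats, against 41.3% of all genes. The calls depended on the arrays: they numbered 3 with day 16 replicate 2 left out, 9 with chemostat replicate 1 or 2 left out and 10 with day 16 replicate 1 left out, and 2 genes rose in every such fit. Without day 16 replicate 2, the share of the list that rose was near the share of all genes in that fit. With the actin ratio as a covariate, 8 rose (24.2%, against 12.6% of all genes in that fit). The 2 genes called in every fit with 1 array left out were QCR8, a subunit of the bc1 complex, and NDE2, an external NADH dehydrogenase. QCR8 read 84.8 and 124 at day 16, against 23.7, 28.3 and 35.3 in the chemostats (log2 change 1.7 ± 0.26, adjusted p = 0.00119). NDE2 read 476 and 483 at day 16, against 143, 107 and 183 in the chemostats (log2 change 1.63 ± 0.27, adjusted p = 0.00186). In the tricarboxylic acid cycle 5 of 20 rose, 2 with chemostat replicate 1 or 2 or day 16 replicate 1 or 2 left out and 3 with chemostat replicate 3 or day 22 replicate 1 or 2 left out, and 2 with the covariate. The succinate dehydrogenase subunits SDH1 (log2 change 0.98 ± 0.15, adjusted p = 0.00125) and SDH3 (log2 change 1.44 ± 0.22, adjusted p = 0.00122) rose in every fit, and SDH3 read 2275 and 3129 at day 16, against 835, 790.4 and 1088 in the chemostats.

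Mitochondrial ribosomal proteins were higher as well, 33 of 70 with 0 lower and a median of 0.50. Of these, 15 rose in every fit with 1 array left out, and the count was 15 with day 16 replicate 2 left out. MRPL37, of the large subunit, read 1367 and 1516 at day 16, against 504, 427 and 674 in the chemostats (log2 change 1.32 ± 0.19, adjusted p = 0.000681), and MRPL50 read 83.8 and 105 at day 16, against 29.8, 35.6 and 46.3 in the chemostats (log2 change 1.22 ± 0.20, adjusted p = 0.00126). Both day 16 arrays were above all 3 chemostats in 55 of the 70, against 41.3% of all genes. Of 29 beta-oxidation and peroxisome genes, 7 rose, a share near the 19.3% of all genes. The rises numbered 1 with day 16 replicate 2 left out and 4 with chemostat replicate 2 left out, and 4 with the actin ratio as a covariate. SPS19, a peroxisomal dienoyl-CoA reductase, rose (log2 change 1.01 ± 0.18, adjusted p = 0.00362), and FAA2, a medium-chain acyl-CoA synthetase, fell (log2 change -1.09 ± 0.14, adjusted p = 0.000626).

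Glycogen genes rose and trehalose genes mostly did not pass. In the glycogen list 7 of 11 rose, 5 in every fit with 1 array left out, 0 fell, and the median was 0.81. GLG2, a self-glucosylating primer of glycogen, read 202 and 238 at day 16, against 51.6, 35.6 and 51.4 in the chemostats (log2 change 2.13 ± 0.24, adjusted p = 0.000183). SGA1, the glucoamylase known from sporulation that breaks glycogen down, read 247 and 324 at day 16, against 60.4, 52.0 and 89.7 in the chemostats (log2 change 1.97 ± 0.26, adjusted p = 0.000283). GDB1, the debranching enzyme, and GLC3, the branching enzyme, rose by 1.12 ± 0.19 and 0.81 ± 0.15 (SE, adjusted p = 0.00234 and 0.00307). Genes for making and for breaking glycogen were thus both among the risers. Of the 10 trehalose genes, 2 rose and 1 fell, and the median was 0.42. With the deposited scaling alone 6 rose and with quantile normalization alone 5, against 26.6% and 21.1% of all genes. Both day 16 arrays lay above all chemostats in 8 of the 10, against 41.3% of all genes. PGM1, the minor phosphoglucomutase, was the one called in every fit with 1 array left out. It read 57.2 and 51.3 at day 16, against 194, 154 and 165 in the chemostats (log2 change -1.79 ± 0.25, adjusted p = 0.000656).

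Stress genes were higher in a majority of their lists. Of 25 genes of the general stress response driven by Msn2 and Msn4, 15 rose, 8 in every fit with 1 array left out, 0 fell, and the median was 1.11. With the deposited scaling alone 23 rose. All 25 had both day 16 arrays above the chemostats, against 41.3% of all genes. GPX1, a glutathione peroxidase, read 1639 and 2198 at day 16, against 331, 244 and 300.2 in the chemostats (log2 change 2.58 ± 0.26, adjusted p = 9.81e-05). GRE1, a hydrophilin of desiccation and osmotic stress, read 893 and 1214 at day 16, against 251, 135 and 352 in the chemostats (log2 change 2.05 ± 0.38, adjusted p = 0.0022). NQM1, a transaldolase, rose (log2 change 1.89 ± 0.27, adjusted p = 0.000719), and so did GAD1, the glutamate decarboxylase (log2 change 1.86 ± 0.29, adjusted p = 0.00099). Among heat shock proteins and chaperones 14 of 26 rose, 7 with day 16 replicate 2 left out, 8 with day 16 replicate 1 left out and 9 with chemostat replicate 1 left out, and 6 in every such fit. The cytosolic Hsp70 genes split: SSA3, a stress-induced form, read 1500.1 and 1886 at day 16, against 349, 316 and 353 in the chemostats (log2 change 2.18 ± 0.21, adjusted p = 0.000105), while SSA2, a constitutive form, read 2047 and 1483 at day 16, against 4642, 4393 and 3634 in the chemostats (log2 change -1.41 ± 0.22, adjusted p = 0.00358). In both genes the groups were apart, in opposite directions.

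Stationary phase and quiescence genes rose in 9 of 18 cases, 0 fell, and the median was 0.59. The count was 5 with chemostat replicate 2 left out. After SPG1 came FMP16, a mitochondrial protein of unknown role, which read 3481 and 4074 at day 16, against 729, 553 and 694 in the chemostats (log2 change 2.39 ± 0.23, adjusted p = 0.000105), and SIP18, a phospholipid-binding hydrophilin, which read 1356 and 2359 at day 16, against 355, 250.1 and 514 in the chemostats (log2 change 2.19 ± 0.34, adjusted p = 0.000973). In the oxidative stress list 9 of 29 rose, 3 with day 16 replicate 2 left out and 5 with chemostat replicate 2 left out and 4 with the actin covariate, and 2 fell. OYE3, an NADPH oxidoreductase, read 553 and 699 at day 16, against 163, 147 and 133 in the chemostats (log2 change 1.94 ± 0.19, adjusted p = 7e-05). TSA2, a thioredoxin peroxidase, and GSH2, the glutathione synthetase, fell in every such fit, by log2 changes of -1.28 ± 0.25 and -1.01 ± 0.16 (SE, adjusted p = 0.00465 and 0.00188). Of the aryl-alcohol dehydrogenases 3 of 4 rose, AAD4 (log2 change 0.83 ± 0.15, adjusted p = 0.00165) and AAD10 in every such fit.

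**Figure D3:**
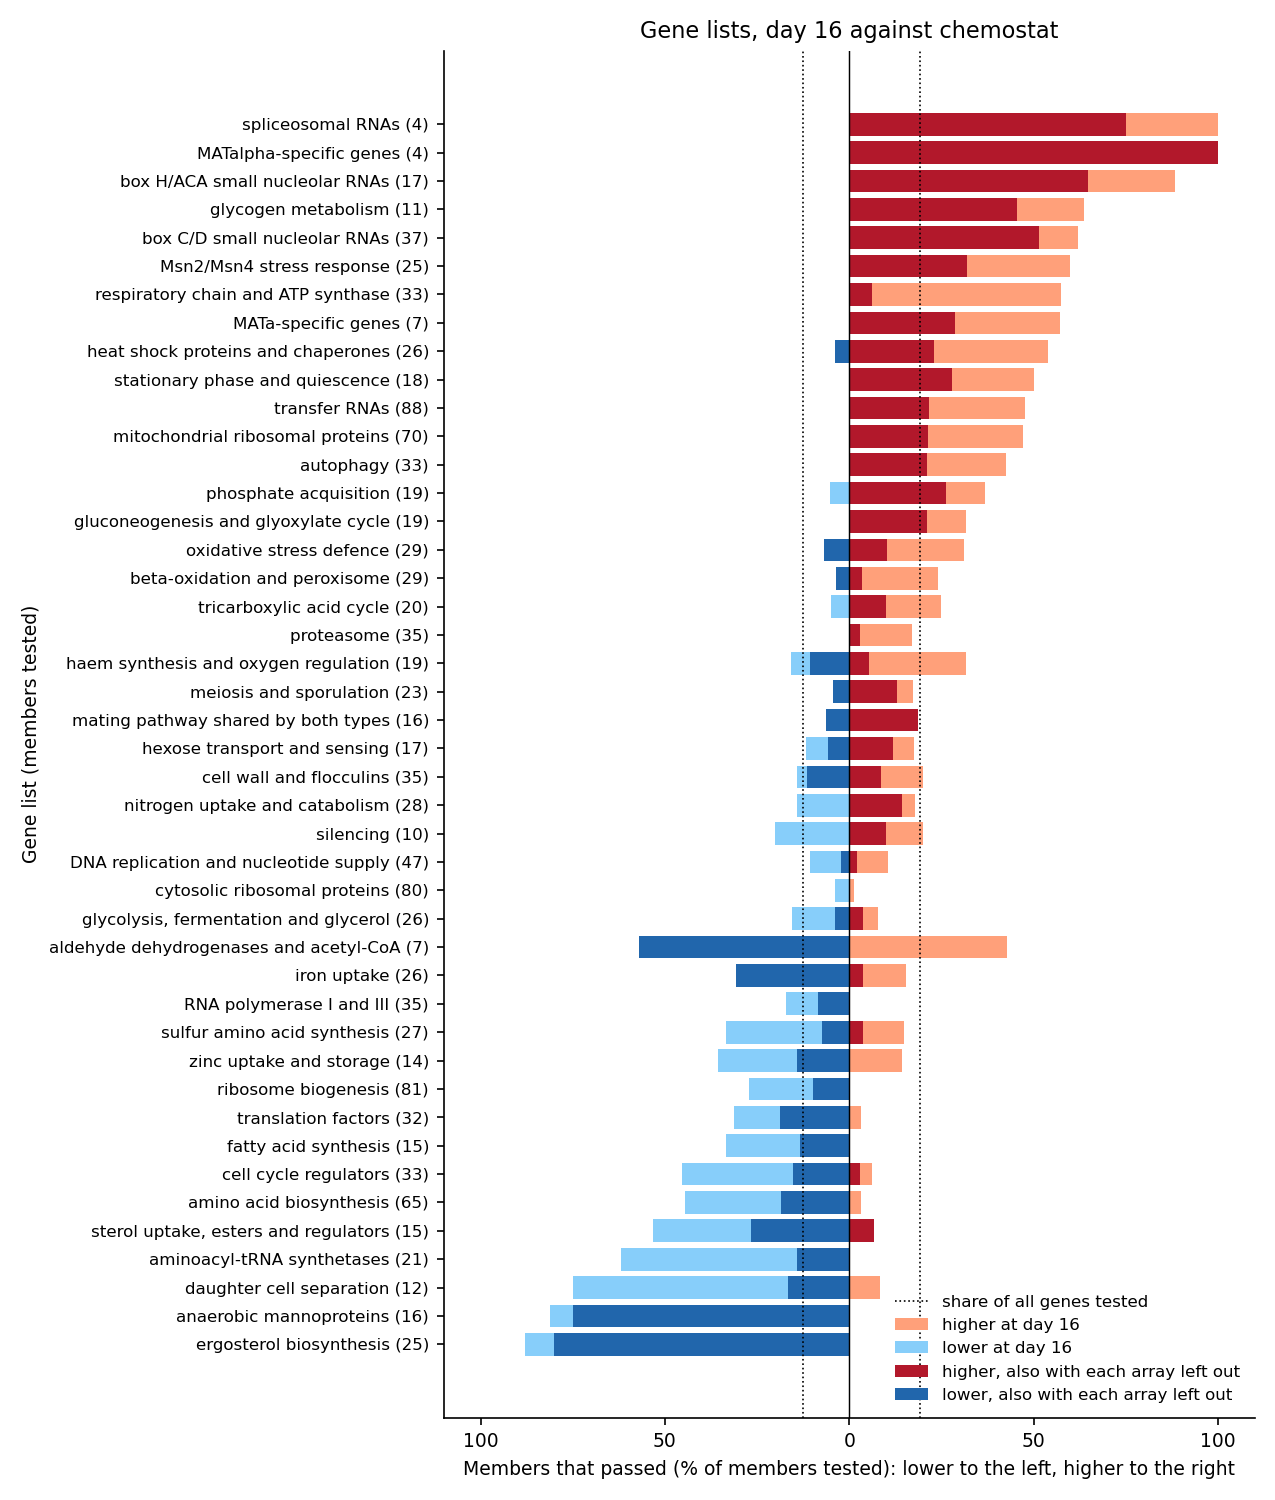
For each list with at least 4 genes that passed, bars give the share of tested members, in percent, that were higher at day 16 (to the right) or lower (to the left), with the dark part for members called in every fit with 1 array left out and the number tested in brackets. The dotted lines mark the shares of all genes tested, 19.3% higher and 12.5% lower. Ergosterol biosynthesis, with 22 of 25 lower, stands at 1 end. The 4 MATalpha-specific genes and the 4 spliceosomal RNAs, all higher, stand at the other.

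Autophagy, the delivery of cell parts to the vacuole for breakdown, was higher in 14 of 33 of its genes with 0 lower, and 7 rose in every fit with 1 array left out. The count was 8 with day 16 replicate 2 left out. The receptors for selective removal of organelles led the list. ATG39, the receptor for nuclear envelope and perinuclear endoplasmic reticulum, read 291 and 312 at day 16, against 58.3, 53.1 and 81.8 in the chemostats (log2 change 2.11 ± 0.24, adjusted p = 0.000153). ATG40, the receptor for peripheral endoplasmic reticulum, read 184 and 228 at day 16, against 57.4, 62.4 and 62.2 in the chemostats (log2 change 1.62 ± 0.24, adjusted p = 0.000765), and ATG33, which acts in the removal of mitochondria, read 589.5 and 677 at day 16, against 180.1, 127 and 187 in the chemostats (log2 change 1.82 ± 0.22, adjusted p = 0.00026). ATG1, the kinase that starts the process, rose too (log2 change 1.2 ± 0.20, adjusted p = 0.000745). Of the vacuolar proteases and their inhibitors 2 of 11 rose, 0 in every such fit. With all arrays, that share was near the 19.3% of all genes. Of 35 proteasome genes 6 rose, a share also close to the 19.3%. The rises numbered 1 with day 16 replicate 2 left out and 3 with chemostat replicate 1 left out, and 13 with the deposited scaling or quantile normalization alone (37.1%, against 26.6% and 21.1% of all genes). UMP1, a proteasome assembly factor, was the one that rose in every such fit (log2 change 0.91 ± 0.17, adjusted p = 0.0027).

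Genes that build ribosomes were lower, with wide dependence on single arrays. Of 81 ribosome biogenesis genes 22 fell, 0 rose, the median was -0.68, and 58 had both day 16 arrays below all chemostats; the same held for 24.8% of all genes. The number that fell was 11 with day 16 replicate 1 or 2 left out, 12 with chemostat replicate 2 left out, 13 with chemostat replicate 3 left out and 50 with day 9 replicate 1 or 2 left out, and 8 fell in every such fit. It was 10 with the actin ratio as a covariate, 37 and 38 with quantile normalization or scaling to 1 median alone, and 48 with only the arrays of the 2 groups. NOP58, a core protein of box C/D particles, read 569.7 and 413 at day 16, against 1661, 1929 and 1581 in the chemostats (log2 change -1.96 ± 0.32, adjusted p = 0.00143). RRP1, a factor of large subunit assembly, read 27.6 and 27.8 at day 16, against 86.3, 84.7 and 100.3 in the chemostats (log2 change -1.84 ± 0.28, adjusted p = 0.00107). UTP6, of the small subunit processome, read 15.3 and 18.8 at day 16, against 43.9, 55.2 and 38.4 in the chemostats (log2 change -1.56 ± 0.23, adjusted p = 0.000994). Its day 16 readings were close to the floor of 12, and with a floor of 50 its call was lost (adjusted p = 0.723). Among subunits of RNA polymerases I and III 6 of 35 fell, 3 with day 16 replicate 2 left out and 11 with day 9 replicate 1 or 2 left out. The count was 11 with quantile normalization or scaling to 1 median alone and 10 with only the arrays of the 2 groups. RPA43, of polymerase I, read 25.2 and 35.8 at day 16, against 70.0, 92.4 and 80.2 in the chemostats (log2 change -1.56 ± 0.29, adjusted p = 0.00342).

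Of 80 cytosolic ribosomal protein genes, 3 fell and 1 rose, and 0 were called in every fit with 1 array left out. The number that fell depended strongly on the processing. It was 11 with day 9 replicate 1 or 2 left out, 1 with chemostat replicate 2 or 3 left out and 0 with day 16 replicate 2 left out. It was 9 with the deposited scaling alone (11.2%, against 12.8% of all genes), 20 with scaling to 1 median alone (25.0%, against 952 of the 5595 genes tested there), 12 with only the arrays of the 2 groups, and 1 with the replicate block or the actin covariate. Whether fewer or more of them fell than of all genes was therefore not settled. Their median was -0.41, and 49 of the 80 had both day 16 arrays below all chemostats, against 24.8% of all genes. The ribosome assembly factors and the ribosomal proteins thus both had medians under 0. Translation factors fell in 10 of 32 cases, 6 with day 16 replicate 2 left out, with 6 in every such fit. Besides HYP2, these included TEF4, a subunit of elongation factor 1, which read 316 and 297 at day 16, against 724, 905 and 799 in the chemostats (log2 change -1.53 ± 0.26, adjusted p = 0.0022), and TIF4631, the scaffold eIF4G, which read 101 and 129 at day 16, against 266, 298 and 292 in the chemostats (log2 change -1.46 ± 0.17, adjusted p = 0.000277). Aminoacyl-tRNA synthetases fell in 13 of 21 cases with a median of -0.86. Both day 16 arrays were lowest in 20 of 21, against 24.8% of all genes. The count was 4 with day 16 replicate 1 left out, 6 with day 16 replicate 2 left out and 8 with chemostat replicate 2 left out, and 7 with the actin covariate. CDC60, the leucyl-tRNA synthetase, read 224 and 229 at day 16, against 488, 488 and 474 in the chemostats (log2 change -1.23 ± 0.17, adjusted p = 0.000839).

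Amino acid biosynthesis was lower in 29 of 65 of its genes, 12 in every fit with 1 array left out, and higher in 2, with a median of -0.73. The falls numbered 15 with day 16 replicate 2 left out and 19 with chemostat replicate 1 or 2 left out, and 18 with the actin ratio as a covariate. HIS7, the glutamine amidotransferase and cyclase of histidine synthesis, read 141 and 64.2 at day 16, against 452, 579 and 483 in the chemostats (log2 change -2.53 ± 0.32, adjusted p = 0.000347). ASN1, an asparagine synthetase, read 216 and 278 at day 16, against 1321, 1530.4 and 844 in the chemostats (log2 change -2.42 ± 0.27, adjusted p = 0.000178). GDH1, the main NADP-dependent glutamate dehydrogenase, read 893 and 603 at day 16, against 2748, 3088 and 2028 in the chemostats (log2 change -1.95 ± 0.24, adjusted p = 0.000699). The day 16 arrays of HIS7 and GDH1 differed from each other, but both lay under every chemostat. GCN4, the activator of many of these genes, changed by -0.18 ± 0.15 (SE, adjusted p = 0.86). In sulfur amino acid synthesis 9 of 27 fell, 2 with day 16 replicate 2 left out and 3 with chemostat replicate 1 or 2 left out and 3 with the covariate, and 4 rose, 2 with chemostat replicate 1 or 2 or day 16 replicate 2 left out. SAM2, an S-adenosylmethionine synthetase, read 671 and 413 at day 16, against 1971, 2006 and 1729.7 in the chemostats (log2 change -1.99 ± 0.25, adjusted p = 0.000471).

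Cell cycle regulators were lower in 15 of 33 cases and higher in 2, with a median of -0.61. The falls numbered 9 with chemostat replicate 2 or day 16 replicate 2 left out, and also 9 with the actin ratio as a covariate, and 5 held in every such fit. PCL1, a G1 cyclin of the kinase Pho85, read 92.0 and 56.8 at day 16, against 321, 302 and 249 in the chemostats (log2 change -2.14 ± 0.36, adjusted p = 0.00173). YHP1, a repressor that confines transcription to the start of the cycle, read 52.7 and 52.2 at day 16, against 191, 198 and 195 in the chemostats (log2 change -2.03 ± 0.15, adjusted p = 2.94e-05). SWI5, an activator of genes at the end of mitosis, read 42.4 and 28.1 at day 16, against 91.9, 112 and 148 in the chemostats (log2 change -1.88 ± 0.24, adjusted p = 0.000376), and the mitotic cyclin CLB1 fell (log2 change -1.58 ± 0.18, adjusted p = 0.000213), a call lost with a floor of 50 (adjusted p = 0.115). CLB5, an S phase cyclin, went the other way (log2 change 0.85 ± 0.15, adjusted p = 0.00194). Genes of daughter cell separation fell in 9 of 12 cases, 2 with day 16 replicate 1 left out, 4 with chemostat replicate 2 left out and 5 with chemostat replicate 1 left out, and 5 with the covariate. EGT2, a cell wall protein of separation, read 384 and 471 at day 16, against 1018, 979 and 1004 in the chemostats (log2 change -1.37 ± 0.19, adjusted p = 0.00113), and AMN1, which antagonises mitotic exit, fell (log2 change -1.25 ± 0.20, adjusted p = 0.00219).

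Of 47 genes of DNA replication and nucleotide supply, 5 fell and 5 rose, against 12.5% and 19.3% of all genes. The falls numbered 2 with chemostat replicate 2 or 3 or day 16 replicate 2 left out, 3 with chemostat replicate 1 left out and 8 with day 9 replicate 1 or 2 left out. They numbered 2 with the replicate block or the actin covariate, 11 with scaling to 1 median alone and 14 with quantile normalization alone (29.8%, against 18.8% of all genes). The rises numbered 1 with day 16 replicate 2 left out, 3 with the covariate and 8 with the deposited scaling alone. The large subunits of ribonucleotide reductase moved in opposite directions. RNR1, the main form, read 445 and 328 at day 16, against 1096, 1184 and 1198 in the chemostats (log2 change -1.74 ± 0.27, adjusted p = 0.00122), while RNR3 rose, as given above. Only these 2 members of the list were called in every fit with 1 array left out. Of the 5 histone genes tested, HTB2 fell (log2 change -1.27 ± 0.23, adjusted p = 0.00342), and the other 4 did not pass. In the list of cell wall proteins and flocculins 7 of 35 rose, 3 with day 16 replicate 2 left out and 4 with chemostat replicate 2 or 3 or day 16 replicate 1 left out, and 5 fell. With all arrays, the shares of this list that rose and fell were near the 19.3% and 12.5% of all genes. PIR3, a cell wall protein linked to glucan, read 3805 and 3902 at day 16, against 717, 699 and 563 in the chemostats (log2 change 2.42 ± 0.19, adjusted p = 2.72e-05), while its relative PIR1 fell (log2 change -1.05 ± 0.18, adjusted p = 0.00312). UTR2, a transglycosylase at the bud neck, read 52.0 and 37.1 at day 16, against 192, 249.7 and 142 in the chemostats (log2 change -2.25 ± 0.29, adjusted p = 0.000364), and SUN4, of cell separation, fell (log2 change -1.63 ± 0.25, adjusted p = 0.00159).

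Phosphate acquisition rose in 7 of 19 of its genes, 5 in every fit with 1 array left out. Of all genes 19.3% rose. The 1 member that fell was PHO4 (log2 change -2.23 ± 0.57, adjusted p = 0.0145), a call lost with the actin ratio as a covariate. GIT1, a transporter of glycerophosphoinositol, read 254 and 314 at day 16, against 41.3, 37.1 and 65.0 in the chemostats (log2 change 2.47 ± 0.22, adjusted p = 6.7e-05). PHO84, the high-affinity phosphate transporter, read 447 and 429.9 at day 16, against 123, 127 and 129 in the chemostats (log2 change 1.66 ± 0.18, adjusted p = 9.26e-05), and VTC3, of the polyphosphate polymerase, rose (log2 change 1.28 ± 0.20, adjusted p = 0.000895). In the nitrogen list 5 of 28 rose and 4 fell, 1 without day 16 replicate 2 and 2 with the actin covariate. With all arrays, both shares of the nitrogen list were near the 19.3% and 12.5% of all genes. PUT1, the proline oxidase, read 148 and 185 at day 16, against 42.1, 35.3 and 62.4 in the chemostats (log2 change 1.73 ± 0.26, adjusted p = 0.000797), and UGA4, a permease of GABA, rose by its brightest probe set (log2 change 1.61 ± 0.26, adjusted p = 0.00188), with its 3 probe sets between 0.14 and 1.61. TPO2, a polyamine exporter, read 387 and 428 at day 16, against 66.9, 82.7 and 48.8 in the chemostats (log2 change 2.52 ± 0.23, adjusted p = 4.21e-05), the one polyamine gene of 9 that was called in every such fit. Among 26 nutrient signalling genes 3 rose and 0 fell, against 19.3% and 12.5% of all genes. The falls numbered 5 with quantile normalization alone and 3 with scaling to 1 median alone. The rises numbered 1 with day 16 replicate 2 left out or with the actin covariate, 5 with the replicate block, 6 with day 9 replicate 1 or 2 left out and 10 with the deposited scaling alone, and PDE1, a cyclic AMP phosphodiesterase, rose in every such fit (log2 change 0.88 ± 0.17, adjusted p = 0.00568).

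Genes of the opposite mating type rose in this MATa strain. All 4 MATalpha-specific genes did so in every fit with 1 array left out, with a median of 1.94. MF(ALPHA)2, the minor alpha-factor gene, read 108 and 64.4 at day 16, against 13.1, 8.4 and 13.6 in the chemostats (log2 change 2.56 ± 0.23, adjusted p = 0.000153). Its chemostat readings lay close to or under the floor of 12, and over the alternatives tried its change ranged between 0.64 and 2.95, lowest with a floor of 50. STE3, the receptor of a-factor, read 162 and 156 at day 16, against 65.8, 54.1 and 54.9 in the chemostats (log2 change 1.32 ± 0.19, adjusted p = 0.000383), and SAG1, the alpha-agglutinin, read 347 and 377 at day 16, against 146, 137 and 153 in the chemostats (log2 change 1.18 ± 0.15, adjusted p = 0.000402). The 4 signals summed to 2150 to 2192 at day 16, against 351 to 415 in the chemostats. Of 7 MATa-specific genes 4 rose and 0 fell, 2 with chemostat replicate 1 or day 16 replicate 1 or 2 left out. ASG7 read 185 and 187 at day 16, against 47.0, 45.0 and 62.6 in the chemostats (log2 change 1.73 ± 0.24, adjusted p = 0.000268), and the a-factor gene MFA1 changed by 0.02 ± 0.28 (SE, adjusted p = 0.904). None of the MATa-specific genes passed the test as lower, while the MATalpha genes rose. Of 16 mating genes shared by both types 3 rose, a share near the 19.3% of all genes, and 1 fell. With the replicate block 5 rose. AGA1, the anchor of agglutinin, had the largest rise (log2 change 1.61 ± 0.20, adjusted p = 0.000236), and KSS1, a kinase of the filamentous growth and mating pathways, fell (log2 change -1.13 ± 0.16, adjusted p = 0.000822). Of 10 silencing genes 2 rose and 2 fell, against 19.3% and 12.5% of all genes. HST2, a deacetylase related to Sir2, rose (log2 change 1.42 ± 0.20, adjusted p = 0.000933) in every such fit, and SIR2, the silencing deacetylase itself, rose (log2 change 0.92 ± 0.22, adjusted p = 0.00798). SIR3, a structural protein of silent chromatin, fell (log2 change -0.76 ± 0.19, adjusted p = 0.0221), as did HST3, another Sir2 relative (log2 change -1.26 ± 0.27, adjusted p = 0.00718). The calls of SIR2, SIR3 and HST3 were all lost without day 16 replicate 2, and that of SIR3 also with the actin covariate.

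Markers of sporulating diploids stayed dim. Their sum over 7 genes was 221 to 226 at day 16, against 150 to 195 in the chemostats, where DIT2 and SPO11 were under the floor in every array. IME1, the master regulator of meiosis, read 61.2 and 66.0 at day 16, against 52.7, 92.1 and 59.3 in the chemostats, and the groups overlapped (log2 change -0.19 ± 0.24, adjusted p = 0.883). In the longer meiosis list 4 of 23 rose, a share near the 19.3% of all genes, and 1 fell. The rises numbered 2 with a floor of 50 and 7 with the deposited scaling or scaling to 1 median alone. RIM4, an RNA-binding protein of meiosis, read 161 and 136 at day 16, against 38.8, 40.7 and 46.0 in the chemostats (log2 change 1.69 ± 0.17, adjusted p = 0.000217), and SPS1, a kinase of spore formation, rose (log2 change 1.52 ± 0.19, adjusted p = 0.000285).

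Small non-coding RNAs held the largest rise of all, that of SNR14. The labelling assay used primes cDNA from poly(A) tails, which the mature forms of these RNAs largely lack. SNR14, the U4 RNA of the spliceosome, read 965 and 2488 at day 16, against 21.6, 25.7 and 74.6 in the chemostats (log2 change 5.35 ± 0.78, adjusted p = 0.000633). SNR7-L, the long form of the U5 RNA, read 401 and 403 at day 16, against 21.4, 25.9 and 55.7 in the chemostats (log2 change 3.54 ± 0.49, adjusted p = 0.000388). All 4 spliceosomal RNAs tested rose, 3 of them in every fit with 1 array left out. The guide RNAs that direct chemical modification of ribosomal RNA rose in 15 of 17 box H/ACA genes and 23 of 37 box C/D genes, with medians of 1.96 and 1.21. SNR71 read 233 and 270.1 at day 16, against 9.5, 14.8 and 13.9 in the chemostats (log2 change 4.08 ± 0.33, adjusted p = 4.21e-05), and SNR45 read 295 and 354 at day 16, against 15.4, 10.2 and 29.0 in the chemostats (log2 change 4.07 ± 0.35, adjusted p = 7.99e-05). Of each, 1 chemostat reading lay under the floor of 12 and the others were low, so these changes depend on the floor. With a floor of 50, 9 box H/ACA genes rose, and the change was 2.23 for SNR71 and 2.59 for SNR45, and both were still called. SNR3 was under the floor in all chemostats and read 84.8 and 89.5 at day 16, at least 7.26-fold higher. Transfer RNA genes rose in 42 of 88 cases, 21 without day 16 replicate 2 or with a floor of 50, with a median of 0.80. SUF6 was the transfer RNA gene with the largest rise, reading 411 and 582 at day 16, against 42.6, 43.6 and 50.1 in the chemostats.

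In SNR14, SNR71 and SNR45 alike, day 16 replicate 2, with the lower actin ratio of 0.472, was the brighter of the day 16 arrays. In SNR14 these arrays differed by more than 2-fold, yet both exceeded every chemostat array. With the actin ratio as a covariate, SNR14 changed by 4.69 (adjusted p = 0.00619), SNR71 by 3.83 (adjusted p = 0.000642) and SNR45 by 3.73 (adjusted p = 0.00096). In that fit all 4 spliceosomal RNAs, 11 box H/ACA and 22 box C/D genes and 28 transfer RNA genes rose. TLC1, the telomerase RNA, changed by -0.07 ± 0.16 (SE, adjusted p = 0.913).

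**Figure D4:**
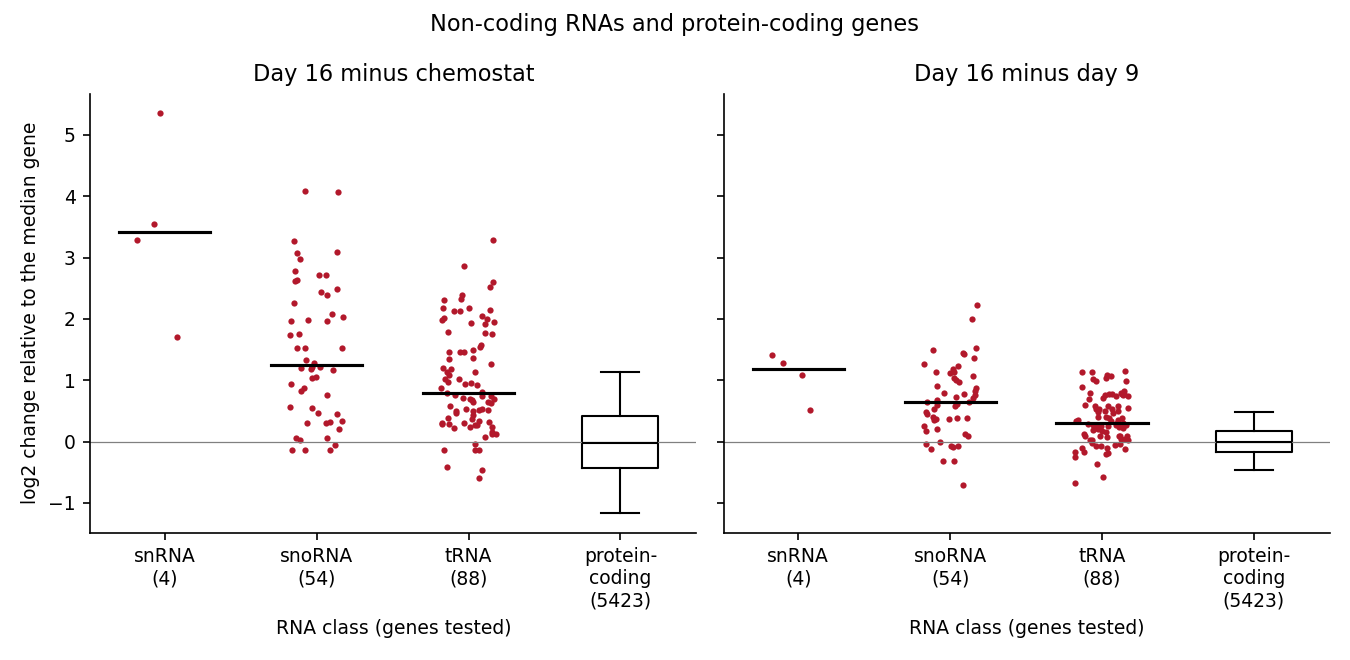
Log2 changes relative to the median gene, for each small nuclear, small nucleolar and transfer RNA gene (points, with the median as a line) and for protein-coding genes (box from the first to the third quartile, whiskers at the 5th and 95th percentiles). In day 16 minus chemostat, on the left, all 4 small nuclear RNAs lie above 1. In day 16 minus day 9, on the right, the points of these classes lie closer to 0.

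The comparison of day 16 with day 9 asks what a further week at near-zero growth changed. The day 9 arrays correlated with r = 0.967, the lowest of any pair within a group, which limits this comparison. With all arrays 1 gene rose (0.0179% of 5585) and 0 fell (0.0%), while 488 genes had an unadjusted p under 0.05. The 95% interval of the change lay within 2-fold for 4688 genes (83.9%). For the other genes a difference of 2-fold or more in either direction was not excluded by the interval. The gene that rose was YKL183C-A, a small open reading frame of unknown function. It read 93.6 and 190.0 at day 16, against 22.6 and 19.0 at day 9, a log2 change of 2.61 ± 0.32 (SE, adjusted p = 0.0323). With the replicate number as a block 0 genes were called, while with the culture as a random block the 1 call was kept. The call also went without either day 16 replicate 2, day 9 replicate 2 or any single chemostat or day 2 array. Without day 9 replicate 1 there were 35 calls, and without day 9 replicate 2 there were 10.

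YKL183C-A read 139 and 243 at day 22 and was under the floor in every chemostat, so that day 16 was at least 11.1-fold higher than the chemostats (adjusted p = 4.06e-05). Its neighbours in the R64 annotation, SPE1 and LOT5, did not pass against the chemostat, with changes of -0.44 ± 0.21 (SE, adjusted p = 0.276) and 0.14 ± 0.25 (SE, adjusted p = 0.81). Whether or not they passed, 46 genes were higher by at least 1 on the log2 scale at day 16 than at day 9, YKL183C-A among them, 26 of the 46 were non-coding RNAs, and 4 genes were lower by as much. SNR45 differed by 2.23 ± 0.39 and SNR71 by 2.0 ± 0.37, neither of which passed.

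Between day 22 and day 16, 0 genes were called (0.0%), with 352 genes at an unadjusted p under 0.05. The interval of day 22 over day 16 lay within 2-fold for 4881 genes (87.4%). SPG1 read 1050.2 and 621 on day 9, 785 and 848 on day 16 and 664 and 741 on day 22. FTR1 read 61.5 and 73.1 on day 9, 70.7 and 84.1 on day 16 and 93.4 and 89.4 on day 22. Both genes stayed clear of their chemostat readings on all 3 days. FLO11 was low from the first retentostat sampling on, with 159.5 and 189 at day 2. MF(ALPHA)1 read 381 and 328 on day 2, 666 and 1206 on day 9, 1575 and 1553 on day 16 and 1733 and 2049 on day 22. Retentostat arrays of different days come from the same pair of cultures, so these are not independent samples.

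**Figure D5:**
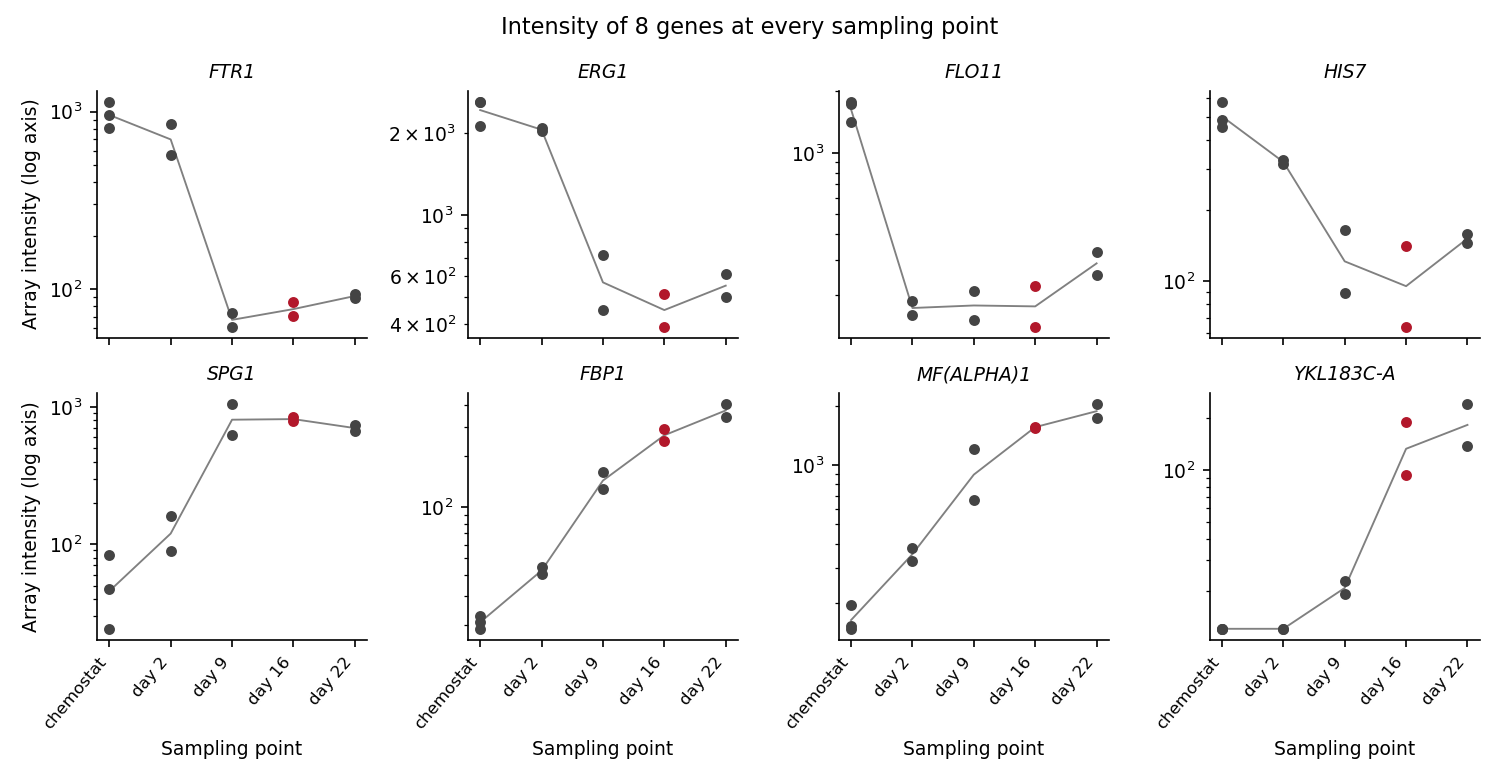
Intensities of 8 genes, on log axes, in the 3 chemostat arrays and the 2 retentostat arrays of days 2, 9, 16 (red) and 22, with lines through the means of the log values and readings under 12 drawn at 12. FLO11 readings are low from day 2 on, whereas YKL183C-A reads 22.6 and 19.0 on day 9 but 93.6 and 190.0 on day 16.

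The 2 day 16 cultures were not alike in every gene. Among protein-coding genes with a mean intensity of at least 50, the largest gap was that of RBG1, a GTP-binding protein associated with ribosomes, which read 336 and 6.1 in replicates 1 and 2. HAC1, the activator of the unfolded protein response, read 1424 and 121 by its brightest probe set. Other HAC1 probe sets had smaller gaps, with 462 and 144, 973 and 702, and 186 and 155. Its 5 probe sets lay between -2.03 and -0.14 against the chemostat. WHI5, the repressor of cell cycle entry, read 66.6 and 10.0. In all of these replicate 1, the array with the higher actin ratio, was the brighter. ATG15, a vacuolar lipase, and FMO1, a flavin monooxygenase, followed, with 104 and 23.7 and with 368 and 85.6. None of these 5 genes passed against the chemostat, although RBG1, for one, read 277, 203 and 341 there.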

How the data were processed

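RNA from 11 cultures or culture time points was hybridised to Affymetrix yeast YG-S98 arrays. Per the labels' protocols, broth was frozen in liquid nitrogen, RNA was extracted with hot phenol, and 15 µg was labelled with the 1-cycle assay. The authors deposited linear intensities made with GCOS 1.2, per the submitters' processing notes. Neither its settings nor its scaling target is given in the sources used here. Genes were named through the array annotation and R64. Of 9335 probe sets, 60 are controls and 6504 carry 1 gene; the brightest of several was kept, which gave 5656 genes. Intensities under 12 were set to 12 and log2 was taken. Then 71 genes at the floor in every array were left out.

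A model with 5 group means was fitted to all 11 arrays with limma 3.58.1 (R 4.3.3), which left 6 residual degrees of freedom and added 4.82 prior ones. The deposited scaling, quantile normalization and scaling to 1 median were each fitted, and a gene was called as the report states. Two-sided p-values were adjusted over all 5585 genes after Benjamini and Hochberg. Per the labels, replicates are separate cultures. Same-numbered retentostat arrays come from the same culture, per the labels. Fits with the replicate number as a block and with the culture as a random block were therefore run. Differences between replicates 1 and 2 at day 16 correlated with those at day 22 with r = 0.40, at day 9 with r = 0.08 and, for chemostats that share only a number, with r = -0.05. The fit was tested on simulated data.

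Named are the 8 largest rises and 8 largest falls among called genes with a standard name and no overlap, in each list up to 4 genes a direction, the 6 largest non-coding rises, up to 6 genes at the floor in a group, called genes between days, and the 5 genes whose day 16 arrays differ most. Other list members and the neighbours of YKL183C-A were chosen with their values seen. The members and the 50 lists were chosen with earlier results of these data known. Detection calls and promoter sequences were not used here, and gene positions served only to name the neighbours of YKL183C-A. Probe sets cannot separate some close copies.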

Additional observations from a re-analysis of the deposited data

Results flagged for a closer look

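YKL183C-A was the gene whose difference from the chemostat was tested to be larger at day 16 than at day 9, with a log2 difference between the days of 2.61 ± 0.32 (SE, limma adjusted p = 0.0323). Both day 16 arrays, 93.6 and 190.0, lay above the day 9 arrays, 22.6 and 19.0. Over the alternatives tried the change ranged between 1.36 and 3.08, and the adjusted p between 0.00217 and 0.594. The call was lost under 12 of 25 alternatives.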

How the results depend on the processing

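For day 16 against chemostat, 1775 genes were called with all 3 scalings together. The deposited scaling alone gave 2206 calls (67.5% higher), quantile normalization alone 2229 (52.9% higher, with 1050 lower), and scaling to 1 median alone 2139 (55.5% higher), against 60.7% higher in the main result. With the actin ratio as a covariate the count was 1154, with 705 higher and 449 lower. Leaving out 1 array at a time gave 886 to 2058 calls, with 521 to 1187 higher and 365 to 873 lower; the lowest counts came without day 16 replicate 2. Where such a fit leaves 1 array in a group, that array is assumed to vary like the other groups. With the replicate number as a block the count was 1793, of which 1578 were among the 1775. In this fit chemostat replicate 3 has no partner, and the other chemostats are paired with retentostats that share only a number. With the culture as a random block the count was 1785, of which 1769 were among the 1775. For day 16 against day 9, the culture as a random block kept the 1 call, while the replicate block gave 0 calls. A floor of 1, no filter and the arrays of both groups alone also gave 0, a floor of 50 gave 5, and leaving out 1 array at a time gave 0 to 35. For day 22 against day 16, a floor of 50 gave 1 call and no array left out gave more than 0. GAL2 turned from a rise to -0.0723 for day 16 against chemostat with a floor of 50, since its chemostat readings lie below that floor and its day 16 readings near it. UTP6 and CLB1 lost their calls with the same floor. Under the replicate block AAC3 was the 1 gene called against the chemostat by name here that lost its call, and WHI5 passed. In 24 list directions with 0 calls, an unadjusted p under 0.05 in the deposited scaling gave 0 genes in 19 and at most 4 in the others. Other scalings can differ, as for nutrient signalling, where quantile normalization alone called 5 genes lower. The number of arrays and, for dim genes, the floor limit what can be seen.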

Other observations

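Some of the larger changes lay outside the gene lists. The genes here were chosen after their values were seen, and each was called in every fit with 1 array left out. SUC2, the secreted invertase, read 489 and 317 at day 16, against 2376, 2414 and 2044 in the chemostats, a log2 change of -2.67 ± 0.23 (SE, adjusted p = 6.7e-05). SFG1, a transcription factor of filamentous growth, read 25.4 and 15.7 at day 16, against 138, 140.0 and 94.0 in the chemostats (log2 change -2.75 ± 0.38, adjusted p = 0.000561), and KCC4, a kinase of the septin ring at the bud neck, read 57.8 and 25.3 at day 16, against 292, 349.5 and 155 in the chemostats (log2 change -2.85 ± 0.50, adjusted p = 0.00189). These fell with no overlap between the groups. Among the rises, HEF3, the paralogue of the translation elongation factor gene YEF3, read 328 and 396 at day 16, against 76.6, 56.6 and 86.3 in the chemostats (log2 change 2.18 ± 0.25, adjusted p = 0.000156). COA2, an assembly factor of cytochrome c oxidase, read 351 and 431 at day 16, against 44.0, 39.6 and 98.7 in the chemostats (log2 change 2.67 ± 0.33, adjusted p = 0.000283). AGX1, the alanine glyoxylate aminotransferase that makes glycine, read 1518 and 1431 at day 16, against 270.2, 246 and 506 in the chemostats (log2 change 2.05 ± 0.30, adjusted p = 0.000629). PRM3, which takes part in the fusion of nuclei after mating, read 70.0 and 82.9 at day 16, against 15.4, 10.9 and 13.0 in the chemostats (log2 change 2.37 ± 0.22, adjusted p = 8.4e-05). All day 16 readings of these 4 genes exceeded all chemostat readings.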
